A study of Mus musculus with 7 samples.

Results

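Glucose production and glucose use in the liver were examined through 8 genes: Pck1, G6pc, Fbp1, Pcx and Slc37a4, which serve glucose production, Pklr and Khk, which serve sugar use, and the glucose carrier Slc2a2, which moves glucose both ways. They were chosen by name, as the genes whose symbol was the only one that the platform annotation gives for a probe set, and all 8 were on the array, on 10 probe sets. The array as a whole named 8251 genes in this way. Of the 8 genes, 7 were bright enough to be tested and Khk was not.

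The samples were 7 liver RNAs of phenotypically normal female mice (genotype +/+ or +/df, per the source name) that had free access to food and were killed at 24 to 26 months of age. Total RNA of each was hybridised to 1 Affymetrix mouse U74Av2 array. Titles number the samples 1, 2, 3, 4, 6, 7 and 8, and these numbers name the replicates. The description field instead names the dwarf df/df genotype; the liver growth factor gene Igf1, which depends on growth hormone, had a signal of 8919 ± 542 (SD, n = 7), and no group of the other genotype was analysed here to set it against. All 7 samples formed 1 group with no treated or control counterpart. The question that these arrays can answer is therefore how far the glucose genes differed from sample to sample, and which of them did so together. Because the labels do not state that each RNA is from its own animal, the p-values cover only the spread between samples, which may be partly technical.

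The liver makes glucose in the fasted state and consumes it after a meal, and the opposed pathways share most enzymes. They part at a few one-way steps: pyruvate carboxylase and Pck1 reverse the pyruvate kinase step, Fbp1 reverses phosphofructokinase, and G6pc frees glucose from its phosphate. Glucagon, acting through cyclic AMP, and glucocorticoids raise transcription of Pck1 and G6pc, insulin lowers it, and high glucose raises Pklr through a carbohydrate response element.

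Signals are scaled intensities in arbitrary units, and signals of different probe sets do not rank transcript amounts. In this bulk tissue, fewer cells of a type and less RNA per cell cannot be told apart. The 7 hepatocyte markers, with a median signal of 25440, all lay above the floor of 50.04 on every array. Markers of other cells were also read: the 7 Kupffer cell markers had a median of 670, the red cell globin gene Hba-a1 had 9857 ± 1957, and 2 of 4 cholangiocyte markers lay below the floor on all arrays. Skeletal muscle genes set 2 arrays apart: the summed signal of the 7 listed muscle genes was 9107 on replicate 1 and 4269 on replicate 2, against 816 to 1185 on the other 5. The muscle actin Acta1 had 5991 and 2034 there, against 10.5 to 100.4, but the muscle creatine kinase Ckm had 144 and 170, no higher than the 147 to 209.5 of the others. Acta1 lay below the floor of 50.04 on replicates 6, 7 and 8, at 10.5, 15.7 and 42.9. The bacterial spike-in controls divided the arrays into replicates 1 to 4 and replicates 6 to 8, with a gap of 0.40 in mean log2 signal.

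The bases before the transcription start are shown for Pck1, G6pc and Pklr, the 3 genes that the later comparisons turn on and whose windows held hormone or glucose response patterns. Each line gives the 250 bases before a RefSeq transcription start on build GRCm38.p6, 5′ to 3′ on the plus strand, in lower case. Capitals mark matches to 4 patterns, searched on both strands: TNACGTCA (the cAMP response element, the target of glucagon signalling), TNTTTTG (the core of the insulin response sequence), CACGNG followed after 5 bases by CNCGTG (the carbohydrate response element) and TATAAA (the TATA box).
Pck1, chr2:173152823-173153072: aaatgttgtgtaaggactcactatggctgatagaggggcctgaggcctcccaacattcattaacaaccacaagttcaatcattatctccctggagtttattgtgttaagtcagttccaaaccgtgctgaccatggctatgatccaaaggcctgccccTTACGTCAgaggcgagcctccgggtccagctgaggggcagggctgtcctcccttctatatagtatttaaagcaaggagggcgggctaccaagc
G6pc, chr11:101367466-101367715: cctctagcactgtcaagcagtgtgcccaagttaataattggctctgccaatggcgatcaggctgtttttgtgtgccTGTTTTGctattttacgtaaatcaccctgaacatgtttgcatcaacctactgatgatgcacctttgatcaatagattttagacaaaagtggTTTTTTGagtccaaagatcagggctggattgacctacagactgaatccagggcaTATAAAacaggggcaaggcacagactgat
Pklr, start 2, chr3:89136373-89136622: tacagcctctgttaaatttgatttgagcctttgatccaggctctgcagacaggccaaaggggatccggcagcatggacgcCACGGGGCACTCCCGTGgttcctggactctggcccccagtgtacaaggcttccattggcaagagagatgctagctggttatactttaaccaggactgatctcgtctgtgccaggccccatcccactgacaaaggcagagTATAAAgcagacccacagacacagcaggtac

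The Pck1 window held 1 cAMP response element, TTACGTCA, from 93 to 86 bases before the start. The G6pc window held 2 insulin response cores, the first from 174 to 168 and the second from 83 to 77 bases upstream, and a TATA box from 29 to 24 bases upstream. The second of the 2 Pklr starts, which lies 481 bases downstream of the first, had a carbohydrate response element from 170 to 154 bases upstream and a TATA box from 31 to 26. In rodents the downstream start is the one known from liver and the upstream start the one known from red cells. The first Pklr window held none of the 4 patterns.

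All 8 genes matched the RefSeq table, with 12 windows among them, and no 2 matches overlapped. Slc2a2 had 1 insulin response core on the minus strand, from 211 to 205 bases upstream, and the third Slc37a4 start had a TATA box from 32 to 27 bases upstream. The windows of Fbp1, Pcx and Khk held no match, which says only that these letters are not there. Among 32851 mouse windows of the same length, 2.52% held the cAMP response element, 16.9% the insulin response core and 12.4% the TATA box, so the last 2 are common. The carbohydrate response element was rare, in 13 windows or 0.0396%. A match describes the letters and is not evidence that a protein binds there.

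**Figure D1:**
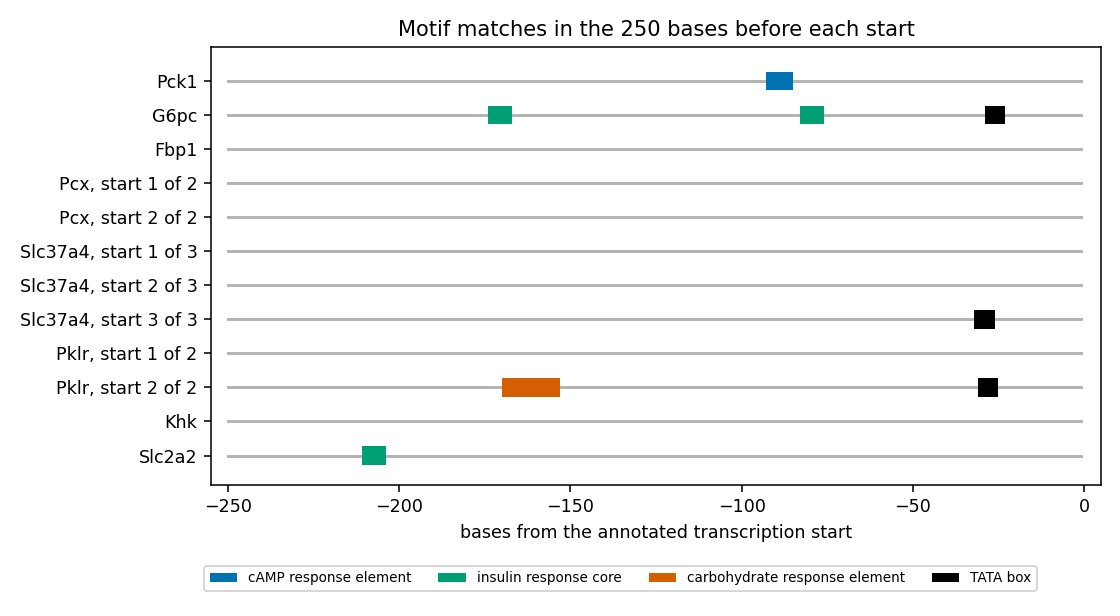
Matches to the 4 patterns in the 250 bases before each RefSeq transcription start of the 8 genes (x axis: bases from the start). Pck1 has its cAMP response element from 93 to 86 bases upstream and the second Pklr start its carbohydrate response element from 170 to 154, while the lines of Fbp1, Pcx and Khk are empty.

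Among the glucose production genes, the most uneven was G6pc, the catalytic subunit of glucose-6-phosphatase, which performs the last step of glucose release (NCBI gene 14377, chromosome 11). Its signal was 3257, 2611, 4236, 3733, 5561, 2742 and 6834 on replicates 1, 2, 3, 4, 6, 7 and 8. Replicates 8 and 6 stood highest, and replicates 2 and 7 lowest, a 2.62-fold range. The mean was 4139 ± 1556 (SD, n = 7). Its log2 SD of 0.52 compared with 0.15 expected for genes of that level. In limma's test of spread the adjusted p was 0.366, so the excess did not pass. With the summed muscle gene signal G6pc had r = -0.545 (exact permutation p = 0.184, adjusted p = 0.643 over 35 relations) and rho = -0.643 (exact p = 0.139). Without the 2 arrays farthest from the median sum that r was -0.444. The part of muscle RNA in G6pc was not tested.

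Pck1, the cytosolic phosphoenolpyruvate carboxykinase that commits oxaloacetate to glucose (NCBI gene 18534, chromosome 2), had signals of 3462, 3817, 4844, 3408, 5141, 3991 and 4899 in the same order. Replicates 6, 8 and 3 formed the upper end, and replicates 4 and 1 the lower. The mean was 4223 ± 724 and the log2 SD 0.25, against 0.14 expected (limma, adjusted p = 0.947). Its r with the 3′ over 5′ ratio of the array's Pcx controls was -0.701 (exact permutation p = 0.094, adjusted p = 0.643 over 35 relations), with rho = -0.679 (exact p = 0.110), and -0.068 without the 2 arrays of most extreme ratio. With the summed muscle gene signal Pck1 had r = -0.647 (exact permutation p = 0.148, adjusted p = 0.643 over 35 relations) and rho = -0.679 (exact p = 0.110). Without the 2 arrays farthest from the median sum that r was -0.837. Against the 3′ over 5′ ratio of the Gapdh controls r was -0.479 (exact permutation p = 0.270), and -0.731 without the 2 arrays of most extreme ratio. The part of these measures in Pck1 was not tested.

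Fbp1, fructose-1,6-bisphosphatase (NCBI gene 14121, chromosome 13), varied little: its lowest signal was 16976 on replicate 7, its median 19045 and its highest 21186 on replicate 3. The 3 highest signals came from replicates 2, 3 and 4, which share the brighter spike-in set. Its mean was 19213 ± 1658, with a log2 SD of 0.13 against 0.12 expected (limma, adjusted p = 0.990). Across the 7 arrays it had r = 0.836 with the mean spike-in signal (exact permutation p = 0.036, adjusted p = 0.643 over 35 relations) with rho = 0.929 (exact p = 0.0067). Without the 2 arrays farthest from the median spike-in signal r was 0.652, and the part of the array set in its spread was not tested.

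Slc37a4 carries glucose 6-phosphate into the endoplasmic reticulum, where G6pc splits it (NCBI gene 14385, chromosome 9). Its signal ran from 2301 on replicate 4, with a median of 2873, to 3566 on replicate 1. Replicate 4 lay apart at the low end, where the next value was 2808. The mean was 2955 ± 403 and the log2 SD 0.20, or 0.14 without replicate 4 (limma, adjusted p = 0.990 with all arrays).

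Pcx, pyruvate carboxylase, makes oxaloacetate from pyruvate in mitochondria (NCBI gene 18563, chromosome 19). On its brighter probe set the signals were 1215, 1338, 1375, 1082, 1132, 1409 and 1086. Replicates 7, 3 and 2 were high, while replicates 4, 8 and 6 were low and close together. The mean was 1234 ± 140 and the log2 SD 0.16, equal to that expected for its level (limma, adjusted p = 0.990).

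Pcx had further probe sets that did not all follow the first. The names of the brighter and the dimmer Pcx probe set both mark them as able to read related sequences. The dimmer one averaged 327 ± 59.9 and had r = -0.433 with the brighter one. The array's own control probe sets along the Pcx transcript averaged 3373 ± 193 at the 3′ end and 1048 ± 395 at the 5′ end. The 3′ control had r = 0.779 with the brighter probe set (exact permutation p = 0.037, n = 7). The 3′ to 5′ ratio of the Pcx controls was 5.55 on replicate 1, 5.39 on replicate 4 and, at the low end, 2.25 on replicate 3. The Gapdh controls, by comparison, ranged from 0.788 to 0.907.

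On the side of sugar use, Pklr encodes the pyruvate kinase of liver and red cells, the last step of glycolysis (NCBI gene 18770, chromosome 3). Its signals were 2017, 2069, 1340, 2565, 2630, 1488 and 2350. Replicates 3 and 7 lay below the other 5, and replicates 6 and 4 were highest. The mean was 2065 ± 502 and the range 1.96-fold. The log2 SD was 0.38, against 0.16 expected (limma, adjusted p = 0.600), and 0.30 without replicate 3.

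A second Pklr probe set, whose name also marks it as able to read related sequences, averaged 1285 ± 215. It had r = 0.608 with the first (exact permutation p = 0.099, n = 7). On it replicates 8 and 6 were high, at 1600 and 1599, and the other 5 lay between 1128 and 1179. Both probe sets had replicate 3 lowest, but the second did not separate replicate 7 from replicates 1, 2 and 4. Against the ratio of 3′ over 5′ signal of the Gapdh controls, the first Pklr probe set gave r = 0.757 (exact permutation p = 0.051, adjusted p = 0.643 over 35 relations) and rho = 0.536 (exact p = 0.236). That r was -0.110 after removing the 2 arrays with the most extreme ratios, and the part of that ratio in the spread of Pklr was not tested.

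Khk, ketohexokinase, traps fructose in the liver as fructose 1-phosphate (NCBI gene 16548, chromosome 5). Its only probe set read 7.40 at the lowest, 10.4 at the median and 33.8 at the highest. All 7 values lay below the floor of 50.04, so the probe set gave no usable level here and no spread was tested.

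Slc2a2, the GLUT2 carrier of the hepatocyte membrane (NCBI gene 20526, chromosome 3), was the steadiest of the tested 7. Its signal ran from 5843 on replicate 6, with a median of 6601, to 6828 on replicate 3. Replicates 6 and 7 were the lowest and the other 5 lay within 6498 to 6828. The mean was 6478 ± 359, and the log2 SD of 0.08, or 0.05 without replicate 6, was below the 0.14 expected (limma, adjusted p = 0.995). It had r = 0.718 with the mean spike-in signal (exact permutation p = 0.071, adjusted p = 0.643 over 35 relations) and rho = 0.643 (exact p = 0.139), and r was 0.903 without the 2 arrays farthest from its median. Against the 3′ over 5′ ratio of the beta-actin controls it had r = -0.593 (exact permutation p = 0.112) and rho = -0.786 (exact p = 0.048). The part of either in its spread was not tested.

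Of the 7 tested genes, 0 passed the limma test of spread after adjustment over all tested genes, as did 0% of the 4481 genes in the whole fit. At an unadjusted p under 0.05 the count was 2, G6pc and Pklr, where the background was 301 genes, or 6.72%. The median log2 SD was 0.20 over the 7 genes and 0.18 over all tested genes. These medians are not matched for level. The 7 genes lay between percentiles 85.5 and 99.7 of the level of all named genes, where their expected log2 SD was 0.12 to 0.16. The plot of signals by replicate shows the same ordering of spread, with G6pc and Pklr wide and Slc2a2 and Fbp1 narrow.

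**Figure D2:**
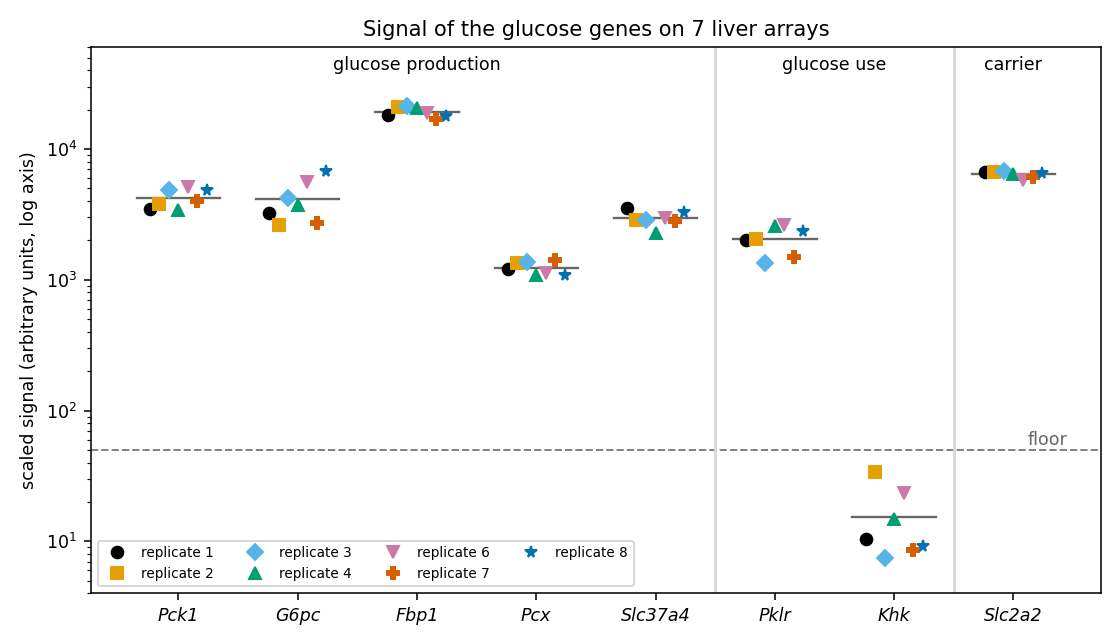
Scaled signal (log axis, arbitrary units) of the 8 genes on each of the 7 arrays, one symbol per replicate, with a bar at the mean. G6pc spans 2611 to 6834 and Pklr 1340 to 2630, Slc2a2 stays within 5843 to 6828, and all Khk points lie under the dashed floor at 50.04.

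The genes that lead glucose into production were then set against those that lead it away. For each array, the mean log2 deviation of the 5 production genes minus that of the 2 use genes was -0.07, -0.12, 0.41, -0.33, -0.05, 0.09 and 0.07 on replicates 1, 2, 3, 4, 6, 7 and 8. Replicate 3 leaned most to production and replicate 4 most to use. The SD of the difference was 0.23, and 0.15 without replicate 3. Khk, at the floor on every array, contributed no deviation to it. With Pklr alone on the use side the difference ran from -0.51 on replicate 4 to 0.70 on replicate 3, with an SD of 0.40.

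The mean deviation of the 5 production genes was lowest on replicate 4, at -0.16, and highest on replicate 8, at 0.19, with an SD of 0.14. Pklr alone ran from -0.58 on replicate 3 to 0.39 on replicate 6. On replicates 6 and 8 both sides were above their means and on replicate 7 both were below, so a low production score did not always come with a high Pklr.

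For genes that oppose each other or act on the same side, 6 pairs were computed. None includes Khk, which had no level above the floor. After adjustment over the 6 pairs, 0 passed at 0.05 in exact permutation tests over 5040 pairings.

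Pcx and Pklr, at opposite ends of the pyruvate cycle, had the strongest relation. With Pcx on its brighter probe set they had r = -0.881 (exact two-sided permutation p = 0.010, adjusted p = 0.061 over 6 pairs) and rho = -0.821 (exact p = 0.034). Replicates 3 and 7 had high Pcx and low Pklr, and replicates 4, 6 and 8 the reverse. The sign held when any 1 array was left out, with r from -0.954 to -0.837, and without replicates 3 and 7 r was -0.775. Within the 4 arrays of the brighter spike-in set r was -0.820, within the 3 of the other -0.944, and with set means removed -0.878.

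That relation did not extend to every probe set of the 2 genes. The 3′ Pcx control had r = -0.836 with the first Pklr probe set (exact permutation p = 0.018, adjusted p = 0.111 over 12 combinations). The dimmer Pcx probe set instead had r = 0.664 with the same Pklr probe set (exact permutation p = 0.099). With the probe sets of each gene averaged, controls left out, r was 0.088. Of the 12 combinations, 0 passed after adjustment. The Pcx 3′ to 5′ ratio is itself made of Pcx signals. It had r = -0.604 with Pcx (exact permutation p = 0.175) and r = 0.623 with Pklr (exact permutation p = 0.134). The Gapdh ratio had r = -0.622 with Pcx (exact permutation p = 0.139) and 0.757 with Pklr (exact permutation p = 0.051). Without the 2 arrays of most extreme Gapdh ratio these were 0.123 and -0.110. Without the 2 arrays of most extreme Pcx ratio, the Pcx ratio had r = -0.619 with Pcx and 0.809 with Pklr. The part of either ratio in the relation was not tested.

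Pck1 and G6pc, the cAMP- and insulin-regulated pair, had r = 0.733 (exact permutation p = 0.074, adjusted p = 0.222) and rho = 0.643 (exact p = 0.139). Replicates 3, 6 and 8 were above the mean in both, and replicates 1, 2, 4 and 7 below it in both. Replicates 1 and 2 also had the highest muscle gene sums, and the part of muscle RNA in the relation was not tested. Without replicates 6 and 8 r was 0.342, so the relation rested in part on those arrays. Within the brighter spike-in set r was 0.457 and within the other 0.922.

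Pck1 and Pklr, the classic opposed pair of fasting and feeding, had r = -0.068 (exact permutation p = 0.862, adjusted p = 0.906) and rho = 0.143 (exact p = 0.783). Replicate 3 had high Pck1 and low Pklr and replicate 4 the reverse, but replicates 6 and 8 were high in both. Without those 2 arrays r was -0.883. Within the brighter spike-in set r was -0.937, and within the other 3 arrays, replicates 6 to 8, it was 1.0, so the 2 sets gave opposite signs.

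The other 3 pairs gave weak values. G6pc and its partner carrier Slc37a4 had r = 0.236, Fbp1 and the liver phosphofructokinase gene Pfkl r = -0.070, and Pcx and Pck1 r = -0.052, each with an adjusted p of 0.906 in exact permutation tests. Their rho values were 0.286, -0.321 and 0.107 (exact permutation p = 0.556, 0.498 and 0.840). The sign of each changed when single arrays were left out.

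**Figure D3:**
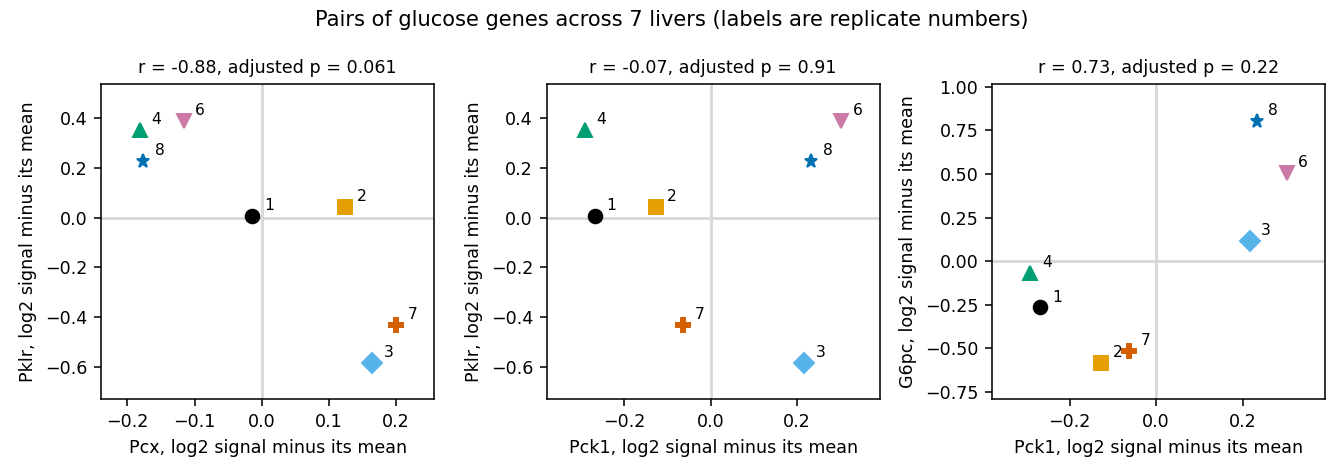
Log2 signal minus the gene's mean for 3 pairs, one labelled point per replicate: Pklr against Pcx, Pklr against Pck1 and G6pc against Pck1. The first pair falls from upper left to lower right (r = -0.88), the second shows no single line (r = -0.07), and in the third replicates 3, 6 and 8 share the upper right corner (r = 0.73).

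Pklr supplies pyruvate to fatty acid synthesis, and the 8 tested lipogenic genes were set beside each of the 7 glucose genes, a comparison chosen after their values were seen. All 8 had a positive r with Pklr, from 0.549 for Gpam, with a median of 0.796, to 0.948 for Elovl6. At an unadjusted exact permutation p under 0.05 the count was 6 of 8, and after adjustment over all 56 gene pairs it was 0. The share of all tested genes with such a p is not given here, so the count of 6 has no background. Elovl6, Fasn, Scd1 and Thrsp were each below their means on replicates 3 and 7, so the 8 genes are not independent counts. The count of 6 fell to 2 without replicate 3, to 3 without replicate 4, to 3 without replicates 1 and 2, and to 2 with all probe sets of a gene averaged. Among the 48 pairs of the other 6 glucose genes, 16 were positive and 6 had an unadjusted p under 0.05.

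Elovl6, which lengthens palmitate, had 4339, 5730, 957, 8654, 5356, 1482 and 5082. Replicates 3 and 7 were far below the rest, as they were for Pklr (r = 0.948, exact permutation p = 0.0044, adjusted p = 0.122, rho = 0.821). Thrsp, a regulator of lipogenesis, had 9143 on replicate 7 and 9392 on replicate 3, against 11546 to 13768 on the other 5 (r = 0.921, exact permutation p = 0.0077, adjusted p = 0.144, rho = 0.821). Without replicates 3 and 7 the r with Pklr was 0.562 for Elovl6, 0.582 for Thrsp, -0.023 for the desaturase gene Scd1 and -0.068 for the fatty acid synthase gene Fasn. The values for Scd1 and Fasn thus rested on those arrays. For Me1, malic enzyme, r was 0.657 with all arrays and 0.869 without them.

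Pcx ran the other way, with a negative r for 8 of 8 lipogenic genes and an unadjusted exact permutation p under 0.05 for 4. For these counts too the share of all tested genes is not given here. The r of Pcx with Thrsp was -0.903 and rho -1, each with an exact permutation p of 0.0004. For rho that is the smallest p that the pairings can give. The adjusted p for r was 0.022. Pcx with Thrsp was the 1 pair of 56 that passed, and its r was -0.783 without replicates 3 and 7. Only the brighter Pcx probe set gave a pass after adjustment. The dimmer one had r = 0.587 with Thrsp (exact permutation p = 0.170). It had a positive r with 8 of 8 lipogenic genes and an unadjusted p under 0.05 for 0 of them. With the brighter and the dimmer Pcx probe set averaged, controls left out, r was 0.062. The 4 Pcx control probe sets had r from -0.842 to -0.701 with Thrsp, and 0 of the 40 pairs of these other probe sets passed after adjustment. With 1 array left out r stayed between -0.978 and -0.862, with an adjusted p of 0.078 to 0.35. Fewer arrays allow fewer pairings, which raises the smallest p that can be reached. These adjusted p-values therefore do not show by themselves that the relation weakened. Pck1 had r = -0.788 with Gpam, which starts triglyceride assembly (exact permutation p = 0.028, adjusted p = 0.196), and G6pc had r = 0.792 with Me1 (exact permutation p = 0.043, adjusted p = 0.205).

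**Figure D4:**
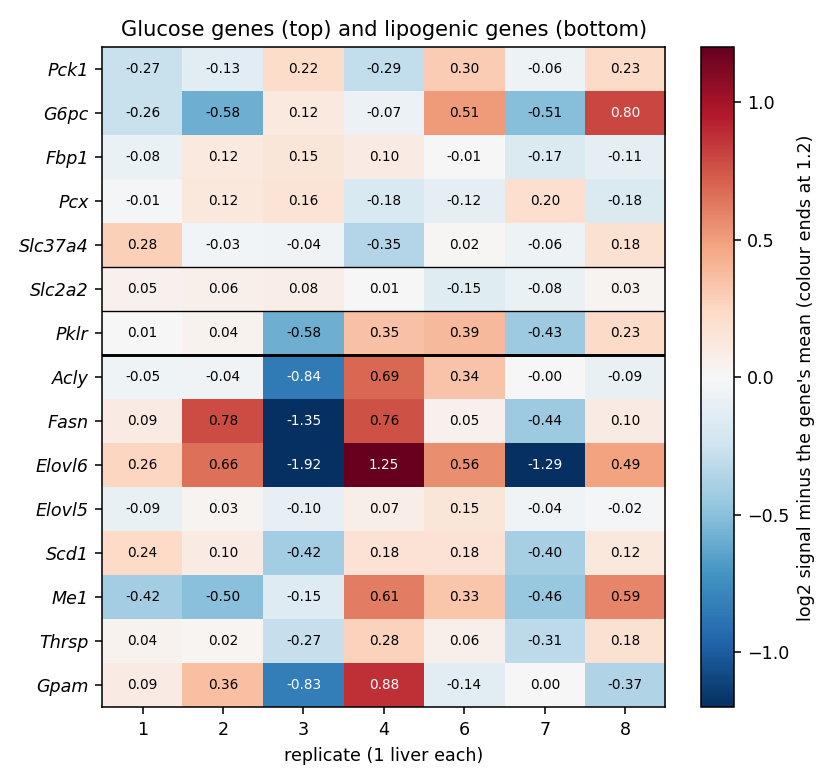
Log2 signal minus each gene's mean, by replicate, for the 7 tested glucose genes (top) and 8 lipogenic genes (bottom), with red above and blue below the mean. Pklr is at -0.58 on replicate 3 and -0.43 on replicate 7, where Elovl6 is at -1.92 and -1.29, while Pcx is at 0.16 and 0.20.

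Other genes of glucose metabolism were read by role. The 9 lists beside the 8 genes named 117 genes, of which 85 had a single-gene probe set and 63 were tested. Of those 63, 19 (30.2%) had an unadjusted p under 0.05 for spread and 0 had an adjusted p under 0.05, against 6.72% and 0% of all tested genes. Their median log2 SD was 0.20. Of the 19, 6 were lipogenic genes. Without replicates 1 and 2, which had the highest muscle gene sums, the count of 19 was 14. With all probe sets of a gene averaged it was 16.

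Of the other genes of glycolysis and gluconeogenesis, 4 of the 14 tested reached an unadjusted p under 0.05. Aldoa, the aldolase best known from muscle, had 3745 on replicate 1 and 1296 to 1761 elsewhere (limma, adjusted p = 0.397). Eno3, an enolase best known from muscle, reached 1031 on replicate 1, 515 on replicate 2 and 238 to 332 on the rest. Pkm, the pyruvate kinase of muscle and most other tissues, had 629 on replicate 1 and 143 to 342 elsewhere. These 3 were highest on the array with the highest muscle gene sum, 9107, and the part of muscle RNA in them was not tested. Ldha, which interconverts pyruvate and lactate, had 4993 on replicate 4, a median of 7637 and 10111 on replicate 3. The triose phosphate isomerase gene Tpi1 was steady at 6562 ± 328, with a log2 SD of 0.07 against 0.14 expected. Pgk1, phosphoglycerate kinase, had 3629 ± 494, with a log2 SD of 0.20 against 0.15 expected.

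Among the switches of glucose flux, 2 of the 6 tested reached an unadjusted p under 0.05, both kinases that shut pyruvate dehydrogenase. Pdk1 had 1714, 1529, 904, 1169, 730, 703 and 663, with replicates 1 and 2 highest (limma, adjusted p = 0.383). These 2 arrays also had the highest muscle gene sums, 9107 and 4269, and the 3 lowest were replicates 6 to 8, the dimmer spike-in set. The part of either in Pdk1 was not tested. Pdk4, a fasting-induced kinase, had 114.6 on replicate 7, a median of 261 and 472 on replicate 4 (limma, adjusted p = 0.505). The dehydrogenase subunit genes Pdha1 and Pdhb had 2377 ± 106 and 3209 ± 281.

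Of the glycogen genes, 0 of 5 tested had an unadjusted p under 0.05. Pgm1, which interconverts glucose 1-phosphate and glucose 6-phosphate, had 5869 ± 542, and Ugp2, which makes UDP-glucose, had 1624 ± 188. The glycogen synthase and phosphorylase genes of liver, Gys2 and Pygl, lacked a probe set annotated to them alone and were not analysed here. In the pentose phosphate pathway 1 of the 6 tested reached an unadjusted p under 0.05. That gene, the transketolase Tkt, had 1342 on replicate 7 and 1533 on replicate 3, against 1926 to 2770 on the rest (limma, adjusted p = 0.603). Of the genes for fructose, galactose and sorbitol entry, 0 of 2 tested had an unadjusted p under 0.05, with Galm, an aldose mutarotase, at 2554 ± 193.

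Regulators of glucose production gave 2 of 9 tested with an unadjusted p under 0.05. Hnf4a, a hepatocyte transcription factor, had 639 on replicate 4, a median of 1382 and 1644 on replicate 7 (limma, adjusted p = 0.450). Pik3r1, a regulatory subunit of the insulin-activated phosphoinositide kinase, had 136.7 on replicate 1, a median of 264 and 487.5 on replicate 8 (limma, adjusted p = 0.571). The glucagon receptor gene Gcgr was steady at 2247 ± 129, as was Cebpa, a hepatocyte transcription factor, at 11538 ± 640. Ppargc1a, a coactivator of gluconeogenic genes in fasting, read 27.0 to 73.1, below the floor on 3 arrays, and was not tested. Foxo1, a transcription factor that insulin restrains, lacked a probe set of its own.

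Regulators of glucose-induced transcription gave 1 of 6 tested with an unadjusted p under 0.05: Usf1, an E-box binding factor, which had 534 on replicate 1 and 977 to 1408 elsewhere (limma, adjusted p = 0.464). Srebf1, a lipogenic transcription factor, had 5514 ± 775, and Mlxipl, the gene of the carbohydrate response factor ChREBP, lacked a probe set of its own. Of the fasting-responsive genes, 3 of 7 tested had an unadjusted p under 0.05. Igfbp1, which insulin represses in liver, had 815, 600, 310.5, 1310, 256, 272.5 and 223. Replicate 4, the lowest for Pck1, was the highest for Igfbp1, and replicates 8, 6 and 7 were the lowest (limma, adjusted p = 0.265). Replicates 6, 7 and 8 are the dimmer spike-in set, and every array of the brighter set read higher for Igfbp1. The part of the array set in Igfbp1 was not tested. Ppara, a nuclear receptor of fasting, had 3336 on replicate 3 and 1073 on replicate 6, and Lpin1, a phosphatidate phosphatase and coactivator, had 955 on replicate 1 and 2395 on replicate 8. Of the lipogenic genes, 6 of 8 tested had an unadjusted p under 0.05, with the smallest adjusted p of 0.102 for Elovl6.

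**Figure D5:**
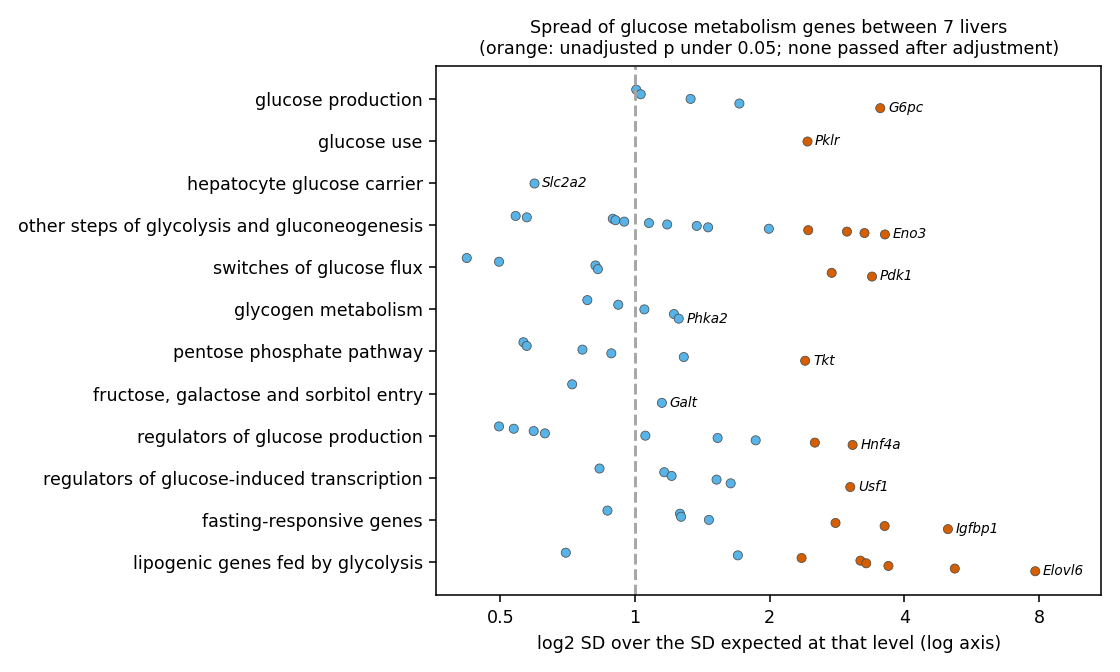
Log2 SD divided by the SD expected at that level (log axis) for each tested gene of the 12 lists, in orange where the unadjusted limma p was under 0.05, with the widest gene of each list named. G6pc and Pklr stand to the right of the dashed line at 1 and Slc2a2 to its left, and 6 of the 8 lipogenic genes are orange against 0 of the 5 glycogen genes.

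Genes whose signals followed a glucose gene most closely over the 7 arrays were ranked by Pearson's r among the tested genes, as a description without a test, since 4481 genes were ranked on 7 arrays. For Pck1 they were the phosphatase gene Dusp1 (r = 0.964), Slc25a25, a mitochondrial carrier of ATP and magnesium (0.961), and Rab2a (0.950). Dusp1 itself had 710 on replicate 1 and 1582 on replicate 8, with replicates 8, 6 and 3 highest, the same 3 as for Pck1. Slc25a25 had 2017 on replicate 1 and 5383 on replicate 6.

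For G6pc the closest were Slc25a51, the mitochondrial NAD carrier (r = 0.975), Scoc (0.968) and Tcea1 (0.937), though Tcea1 varied only from 968 to 1080. For Fbp1 they were Wnt1 (0.952), 1810009A15Rik (0.938) and Mgst1, a microsomal glutathione transferase (0.926). Mug1, a proteinase inhibitor, Unc50 and Tdo2, which starts tryptophan breakdown, followed Pcx most closely, at r = 0.956, 0.951 and 0.944. For Slc37a4 they were the interferon-induced Irgm2 (0.955), Rmdn3 (0.924) and Sart1 (0.923), and for Slc2a2 Rtn3 (0.987), Zdhhc6 (0.985) and Ik (0.970). Pklr was followed most closely by Gga2 (0.961), Elovl6 (0.948) and Pkp4 (0.942). Genes with r of at least 0.9 numbered 24 for Slc2a2, 19 for Pck1, 17 for Pklr, 12 for Fbp1, 11 for G6pc, 10 for Pcx and 5 for Slc37a4. Genes with r of at most -0.9 numbered 14, 13, 22, 12, 11, 15 and 8 in the same order. The number that unrelated genes would give is not given here. No glucose gene was among the 3 closest of another.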

How the data were processed

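Each of 7 liver RNAs was read on a 1-colour Affymetrix U74Av2 array with a Hewlett-Packard scanner, as the labels state. The deposited intensities give 1 value per probe set and array on a linear scale. Nothing in the sources used here names the software or scaling, but the mean after trimming 2% at each end was 500.36 to 500.39 on every array. The number of arrays limits the precision.

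Arrays were scaled to 1 trimmed mean, values below 50.04 (0.1 of it) were set to that floor, and log2 was taken. Signals in the text are scaled values before the floor. The platform annotation gave 10855 of 12488 probe sets a single symbol, 396 several and 1237 none; only the first were named. The brightest probe set stood for a gene. The 4481 genes with a mean of at least 200.1 were tested for spread between arrays with an intercept-only limma 3.58.1 fit in R 4.3.3 (robust prior following the mean, upper-tail F test, Benjamini-Hochberg at 0.05), on steps tested on simulated data. Correlations used exact two-sided permutation tests over 5040 pairings, adjusted within each family. With arrays left out or the array set as a term the pairings were fewer. Tables and plots were made in Python 3.11.15 with scipy 1.17.1, numpy 2.4.6, pandas 2.3.3 and matplotlib 3.10.9.

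The genes, lists and pairs were chosen with earlier results of these data known. Genes named are the 8 genes and their pairs, up to 3 of the highest level and 2 of the largest relative spread per list, up to 2 per marker list, the 3 closest to each glucose gene, and Igf1, Igfbp1, Pdk4, Ppargc1a, Foxo1, Mlxipl, Gys2 and Pygl. Some items of the lists are not reported here. Pkm, Lpin1, Me1, Gpam and Ckm were named after their values were seen. The widest gap in spike-in signal gave the 2 array sets. Alternatives were other scalings, floors, filters, priors and probe set rules, and leaving out each array. Those chosen after seeing the data were other probe sets of Pcx and Pklr, Pklr alone on the use side, the lipogenic correlations of Pklr and Pcx, and leaving out replicates 1 and 2 together. Upstream bases come from RefSeq on GRCm38.p6. The arrays name no build.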

Additional observations from a re-analysis of the deposited data

Results flagged for a closer look

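Of the genes named by the rules in the methods, 84 were bright enough to test, and 3 had 1 array far from the other 6 by Dixon's criterion. Chance flags about 1 in 20 groups. None was among the 8 glucose genes. Aldoa stood high on replicate 1, at 3745. Tpi1 was low on replicate 3, at 5902. Usf1 was low on replicate 1, at 534.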

How the results depend on the processing

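Over the alternatives the adjusted p for spread ran from 0.333 to 1 for G6pc and from 0.468 to 1 for Pklr (limma). Genes past the adjusted threshold in the whole fit numbered 0, but 1 where an offset replaced the floor and 0 to 1 with single arrays left out. Averaging all probe sets of a gene, controls left out, set Pcx at 780 in place of 1234 and the SD of production minus use at 0.147. The r of Pck1 with Pklr was then 0.234, of Pcx with Pklr 0.088 and of Pcx with Pck1 0.116. The same averaging left 2 lipogenic genes with an unadjusted exact permutation p under 0.05 for r with Pklr in place of 6. The r of Pcx with Pklr passed with median centring (-0.873, exact permutation, adjusted p = 0.026), and all alternatives gave it adjusted p between 0.026 and 0.971. With other probe sets that r was 0.664 and 0.337 for the dimmer Pcx probe set with each Pklr probe set. With the second Pklr probe set it was 0.0056 for the 5′, 0.129 and 0.206 for the middle Pcx controls. The r of Fbp1 with Pfkl was 0.465 with quantile normalization and 0.598 with the array set as a term, and that of Pcx with Pck1 was 0.068 with the array set and 0.045 without replicates 1 and 2. With single arrays left out, r ranged from -0.415 to 0.287 for Pck1 with Pklr, from -0.656 to 0.357 for Fbp1 with Pfkl, from -0.058 to 0.494 for G6pc with Slc37a4 and from -0.410 to 0.181 for Pcx with Pck1. The count of lipogenic genes with Pklr ranged from 2, without replicate 3, to 5, with 3 without replicate 4, and was 3 without replicates 1 and 2. The r of Pcx with Thrsp no longer passed with median centring (-0.828) or quantile normalization (-0.901). Nor did it pass with the array set as a term (-0.941), without replicates 1 and 2 (-0.984) or with any 1 array left out (-0.978 to -0.862). Those last settings allow fewer pairings, which raises the smallest p that can be reached, so they cannot decide whether the relation weakened. The r of Pcx with Thrsp was 0.062 with all probe sets but the controls averaged, and 0.587 with the dimmer Pcx probe set. With the 3′, 5′ and 2 middle Pcx controls it was -0.815, -0.842, -0.701 and -0.710. All alternatives gave it adjusted p between 0.022 and 0.973 (exact permutation). With Pklr alone on the use side the SD of the contrast was 0.396. The causes were not tested. No paired analysis was possible because all samples form 1 group. No detection calls were used, so dim signals may be background.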
